A study of Mus musculus with 34 samples.

Results

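The 10 genes followed here belong to the tight junction of airway epithelium: the claudins Cldn1, Cldn3, Cldn4, Cldn7, Cldn8, Cldn10, Cldn18 and Cldn23, the scaffold gene Tjp1 and the occludin gene Ocln. They were taken by gene symbol from a knockout expression table of 24223 rows, in which each of the 10 had 1 row. The table holds 28 libraries of airway epithelium brushed from the trachea of Gprc5a-/- mice, 1 mouse per library, and 6 further libraries came from wildtype mice before exposure. All 28 knockout mice, controls included, lacked Gprc5a, a receptor gene of lung epithelium whose loss favours lung tumours. Baseline mice were sampled before exposure (n = 6). The other groups had received NNK, a nitrosamine of tobacco smoke, at 50 mg per kg body weight 3 times a week for 8 weeks. They were sampled at the end of exposure (t0, n = 6) and 2 months (t2, n = 5), 4 months (t4, n = 6) and 6 months later (t6, n = 5). The labels give an age of 6 to 8 weeks for every group, exposed and unexposed, and with no unexposed knockout mice of the ages of t0 to t6 in the comparisons, ageing and time since NNK cannot be told apart. Strain is not given in the sources used here.

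Tight junctions seal the space between epithelial cells near the lumen. Claudins span the membrane and pair with claudins of the neighbouring cell, and the mixture of sealing and pore-forming claudins sets which ions and solutes pass. Occludin is a further membrane protein of the strand, and ZO-1, the product of Tjp1, ties the strand to the actin cytoskeleton.

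Total counts ranged from 15.6 M to 37.6 M per knockout library. Gprc5a itself had 4 to 49 counts in 27 of the knockout libraries and 238 in the library labelled t2 339, against 2115 to 8186 estimated counts in the wildtype libraries. That library also had counts for 14283 genes only. Haemoglobin transcripts were abundant in t0 357 (22.8%), t4 371 (25.5%) and t6 349 (15.3%), and the ribosomal RNA precursor Rn45s in t6 365 (14.8%). Without these 5 libraries the counts of called genes given below were the same for t0, t2, t4 and t6 against baseline and for t2 against t0. They were 1 in place of 2 for t4 against t0, 5 in place of 6 for t6 against t0, and 8 in place of 7 for the test over all groups.

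Cldn4 and Cldn3 lie on chromosome 5 at 134945124 to 134946935 and 134986214 to 134987477 (mm10), 39.3 kb apart, with no other row of the table between them. Both were higher at the end of exposure, while Cldn10, on chromosome 14 at 118787871 to 118874526, was lower and has a pair of annotated starts. The 250 bases before each of these starts are shown because, among the genes with a window in the promoter table used, Cldn4 and Cldn10 moved most at t0 and Cldn3 lies beside Cldn4. They are from RefSeq (GRCm38.p6), written 5′ to 3′ on the gene's strand, at chr5:134946935-134947184 (minus strand) for Cldn4, chr5:134985964-134986213 (plus) for Cldn3, and chr14:118787621-118787870 and chr14:118854700-118854949 (plus) for the upstream and downstream starts of Cldn10. Capitals mark matches, on either strand, to the AP-1 motif TGANTCA, the SNAI and ZEB E-box CAGGTG, the GC box GGGCGG or the CCAAT box, none of which overlap each other here.
Cldn4: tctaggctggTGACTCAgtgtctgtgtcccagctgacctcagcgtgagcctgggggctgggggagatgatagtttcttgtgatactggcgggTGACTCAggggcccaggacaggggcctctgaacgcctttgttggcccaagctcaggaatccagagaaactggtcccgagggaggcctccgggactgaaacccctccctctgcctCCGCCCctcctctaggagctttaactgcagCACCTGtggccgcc
Cldn3: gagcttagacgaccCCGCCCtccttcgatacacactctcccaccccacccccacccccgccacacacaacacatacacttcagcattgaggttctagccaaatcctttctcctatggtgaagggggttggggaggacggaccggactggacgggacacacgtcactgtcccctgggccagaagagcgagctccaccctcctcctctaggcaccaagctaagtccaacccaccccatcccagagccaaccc
Cldn10 upstream start: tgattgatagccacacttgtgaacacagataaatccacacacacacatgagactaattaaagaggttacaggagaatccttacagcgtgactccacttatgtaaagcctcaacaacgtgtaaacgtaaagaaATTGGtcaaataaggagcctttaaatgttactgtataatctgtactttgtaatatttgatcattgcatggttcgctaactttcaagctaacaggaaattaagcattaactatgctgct
Cldn10 downstream start: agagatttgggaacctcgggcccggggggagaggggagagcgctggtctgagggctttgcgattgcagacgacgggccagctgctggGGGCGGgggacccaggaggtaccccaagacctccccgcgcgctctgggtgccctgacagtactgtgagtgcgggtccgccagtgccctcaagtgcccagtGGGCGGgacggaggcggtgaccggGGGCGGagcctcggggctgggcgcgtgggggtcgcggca

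The Cldn4 window held 2 AP-1 matches, beginning 240 and 158 bases before the start. It also held 1 GC box at 44 and 1 E-box at 14. Of 32851 promoter windows of the same length, 6.75% held the AP-1 letters, 17.2% the E-box, 32.7% the GC box and 33.8% the CCAAT box. The Cldn3 window held 1 GC box, at 236. At Cldn10 the upstream window was 36% G and C with 1 CCAAT box, and the downstream window was 72.4% G and C with 3 GC boxes, against a median of 52.4% G and C over all windows. The RefSeq promoter table used here covered 8 of the 10 genes, in 12 windows, without Cldn8 and Cldn23. Among these 12 windows AP-1 letters were found at Cldn4 alone, and the grainyhead-like motif AACCNGTT (1.79% of all windows) and the TATA box TATAAA (12.4%) in none. The E-box was in 3 windows (at Cldn4, Cldn7 and Ocln) and the CCAAT box in 2 (at Ocln and Cldn10). GC boxes were in 8 of the 12, those of Tjp1 and Ocln included. These matches are descriptions of the letters in the window. The table has 1 value per gene, so reads from the Cldn10 starts, which give rise to different Cldn10 isoforms, could not be separated.

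At the end of exposure the claudin transcripts moved in both directions. Cldn4, Cldn23, Cldn1, Cldn7 and Cldn3 were higher than at baseline, by 4.58-, 4.6-, 3.61-, 2.06- and 2.03-fold, and Cldn10 and Cldn8 were lower, by 8.37- and 1.74-fold. Tjp1 and Ocln did not pass the test. Thus 7 of the 9 genes that could be tested were called at t0 (5 rose, 2 fell; edgeR quasi-likelihood test, adjusted p under 0.05), where 45.5% of all 14847 genes tested were called (23.3% rose, 22.3% fell). In each of the 7 no t0 library overlapped a baseline library, as was so for 25.8% of all genes. The median log2 fold change of the 9 was 1.02, against 0.02 over all genes. In brushed tissue, fewer cells of a type and less RNA per cell cannot be told apart, and values below are TMM-scaled counts relative to library size (CPM) unless another scale is named.

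**Figure D1:**
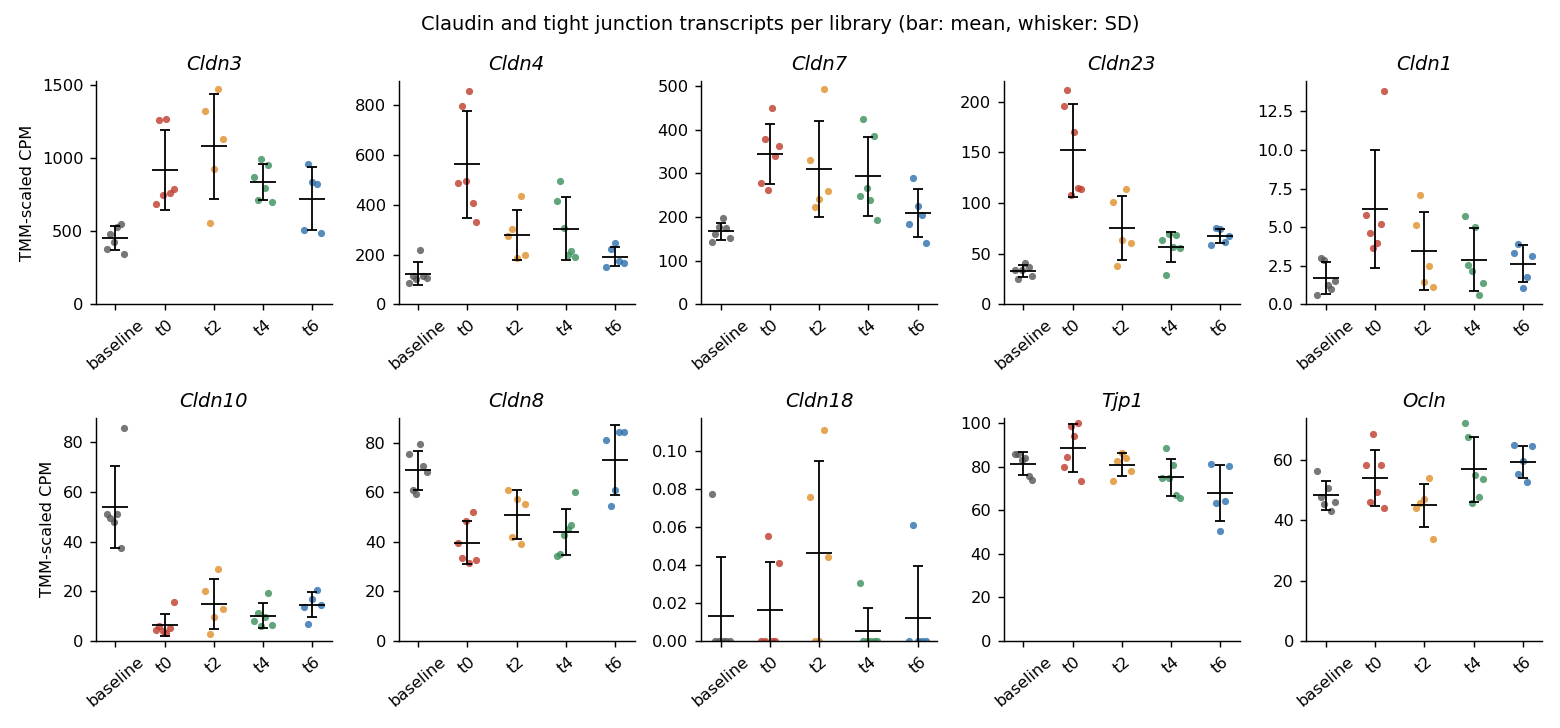
TMM-scaled CPM (vertical axes, each from 0) of the 10 genes in each of the 28 knockout libraries, by group (horizontal axes); points are libraries, horizontal bars group means and whiskers SD. All 6 t0 libraries lie above all 6 baseline libraries for Cldn3, Cldn4, Cldn7, Cldn23 and Cldn1 and below them for Cldn10 and Cldn8, while those of Tjp1 and Ocln overlap.

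Cldn3, a sealing claudin and receptor of a clostridial toxin, was the most abundant of the 10. At baseline it ranged from 347 to 549 CPM (median 454). At t0 it ranged from 685 to 1270 (median 772), with t0 357 and t0 367 at 1260 and 1270 and the other 4 between 685 and 786. The log2 fold change was 1.02 ± 0.21 (SE; edgeR, adjusted p = 0.0003). The t2 libraries held 554, 922, 1130, 1320 and 1470 CPM, the lowest of them t2 339, and all 5 lay above the baseline libraries (1.26 ± 0.22, 0.00041). At t4 the range was 698 to 990 (median 831), again without overlap (0.89 ± 0.21, 0.0045). The t6 libraries fell into 486 and 506 CPM in t6 368 and t6 341, within the baseline range, and 824, 835 and 960 in the other 3. The t6 difference of 0.68 ± 0.22 missed the threshold (adjusted p = 0.053).

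That t6 value for Cldn3 lay near the threshold: its adjusted p was 0.019 to 0.048 under 7 of the other settings run (3 other scalings, haemoglobin and Rn45s genes left out, DESeq2, sex as a covariate, or the groups compared alone), and 0.22 without the 5 libraries that stood apart. It also passed, at 0.023 or above, when any 1 of t0 357, 359 or 367, t2 339 or 358, or t6 341 or 368 was left out. The 3 highest t6 libraries include t6 349 and t6 365, the ones rich in haemoglobin and Rn45s, which are among those 5. The last bases of Cldn3 overlap another row, Wbscr25, which averaged 1.65 CPM.

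Cldn4, the neighbour of Cldn3 and bound by the same toxin, rose further. Baseline libraries held 85.0 to 217 CPM (median 109), with baseline 352 alone at 217 and the other 5 between 85.0 and 115. At t0 the range was 331 to 859 (median 491), with t0 357 and t0 367 highest, as for Cldn3. The log2 fold change was 2.19 ± 0.28 (adjusted p = 7.9e-07). The t2 libraries held 185, 198, 274, 304 and 437 CPM, 2 of them below baseline 352 (1.18 ± 0.29, 0.005). At t4 the range was 191 to 494 (median 262), and the log2 fold change from baseline was 1.3 ± 0.28 (0.0017). The t6 libraries held 151, 167, 175, 222 and 245, all above 5 of the 6 baseline libraries, and the t6 difference of 0.64 ± 0.28 missed the threshold (0.17). Without baseline 352 that difference was 0.88 (adjusted p = 0.049).

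Cldn7, a claudin of the lateral membrane that binds EpCAM, lies on chromosome 11 at 69964779 to 69967887. It ranged from 142 to 198 CPM at baseline (median 167) and from 263 to 450 at t0 (median 351). The log2 fold change at t0 was 1.04 ± 0.20 (adjusted p = 0.00014), and no t0 library lay below 263. The t2 libraries held 223, 242, 260, 330 and 494 CPM, all above baseline (0.89 ± 0.21, 0.0042). At t4 the range was 194 to 425 (median 257), with 1 library inside the baseline range (0.81 ± 0.20, 0.0062). At t6 the 5 libraries held 140, 184, 205, 225 and 290, from below to above the baseline range, and the difference of 0.32 ± 0.21 did not pass (0.39).

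Cldn23, a less studied claudin of chromosome 8 (35824709 to 35826560), showed the smallest adjusted p of the 9 at t0. It ranged from 24.7 to 41.0 CPM at baseline (median 34.0) and from 108 to 211 at t0 (median 142). The t0 libraries fell into 108, 114 and 115 on one side and 170, 196 and 211 on the other, all far above baseline (2.20 ± 0.23, 4.3e-08). At t2 the libraries held 37.7, 60.3, 63.3, 101 and 114, the lowest again t2 339 and the only one inside the baseline range (1.18 ± 0.24, 0.0012). At t4 the range was 28.9 to 69.0 (median 59.9), with t4 336 at 28.9 apart from the other 5 (0.78 ± 0.23, 0.016). At t6 all 5 libraries, at 58.7, 61.4, 67.7, 73.9 and 75.0, lay above baseline, and Cldn23 was the only one of the 9 that was higher than baseline by the test at t6 (1.03 ± 0.24, 0.0059).

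Cldn1, the claudin on which the skin barrier depends, lies on chromosome 16 at 26356646 to 26371840 and was rare in these brushings. It ranged from 0.579 to 3.03 CPM at baseline (15 to 83 counts, median 1.39 CPM) and from 3.66 to 13.8 at t0 (median 4.93), with t0 375 at 13.8 and the other 5 at most 5.78. The log2 fold change was 1.85 ± 0.53 (adjusted p = 0.0058), and 1.45 (0.029) without t0 375. At t2 the libraries held 1.15, 1.44, 2.49, 5.13 and 7.05 CPM, at t4 they ranged from 0.571 to 5.73, and at t6 they held 1.05, 1.80, 3.13, 3.33 and 3.92. All 3 groups overlapped baseline, and none differed by the test (log2 fold changes 1.01, 0.78 and 0.63, with 95% intervals of -0.05 to 2.08, -0.25 to 1.80 and -0.44 to 1.69).

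The transcripts nearest to Cldn1 over the 28 libraries were H2-DMa, which loads peptide onto MHC class II (Pearson r = 0.89 on log2(CPM + 1), and 0.84 after group means were removed), and Wdfy4, a gene of antigen cross-presentation in dendritic cells (0.85 and 0.79). H2-DMa stood at 6.69 ± 5.03 CPM (SD, n = 6) at baseline and 23.4 ± 15 (n = 6) at t0, and its highest library, at 50.9, was t0 375. The MHC class II chain gene Cd74, looked at after these values were seen, was highest in the same library, at 2120 CPM against 232 to 938 in the other t0 libraries. All 8 macrophage marker genes tested rose at t0, from a summed level of 56.7 to 106 CPM to one of 350 to 1180, and 5 of 6 genes of T and NK cells rose, from 1.78 to 15.3 to 9.81 to 90.3, both highest in t0 375. Their part in the Cldn1 result was not tested.

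Cldn10, which forms ion-selective pores and is known as a transcript of airway club cells, fell most. Baseline libraries ranged from 37.3 to 85.6 CPM (median 50.2), with baseline 356 at 85.6 and the other 5 at most 50.9. At t0 the range was 3.16 to 15.5 (median 4.87), with t0 375 at 15.5 and the other 5 at most 5.91. The log2 fold change was -3.06 ± 0.44 (adjusted p = 3e-06), and it ranged from -3.55 to -2.88 when any 1 library was left out. The t2 libraries held 2.98, 9.56, 12.8, 20.3 and 28.9 CPM (-1.85 ± 0.44, 0.0047), the lowest being t2 339. At t4 the range was 6.06 to 19.5 (median 8.76; -2.41 ± 0.42, 0.00033), and the t6 libraries held 6.88, 13.8, 14.5, 16.7 and 20.7 (-1.89 ± 0.44, 0.0068). No library of any exposed group reached the lowest baseline library, so Cldn10 was still 3.7-fold below baseline 6 months after exposure.

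Club cell marker genes moved with Cldn10. All 8 on the list, the secretoglobin Scgb1a1 among them, fell at t0, from a summed level of 173000 to 241000 CPM at baseline to 25200 to 41900. At t2, t4 and t6 the sum stood between 70400 and 191000, and 5, 6 and 5 of the 8 were still below baseline by the test. Within t0 the order was not the same, since t0 375 had the highest Cldn10 and the lowest club cell sum. In each later group the library highest in Cldn10 was also highest in the sum. These were t2 358 (28.9 and 169000 CPM), t4 371 (19.5 and 191000) and t6 366 (20.7 and 171000). The lowest library was also the same at t4 (t4 340) and t6 (t6 349), but not at t2. The transcripts nearest to Cldn10 were Epdr1 (r = 0.89, and 0.67 within groups) and Arhgap6 (0.88 and 0.71). The part of club cell number in the Cldn10 result was not tested.

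**Figure D2:**
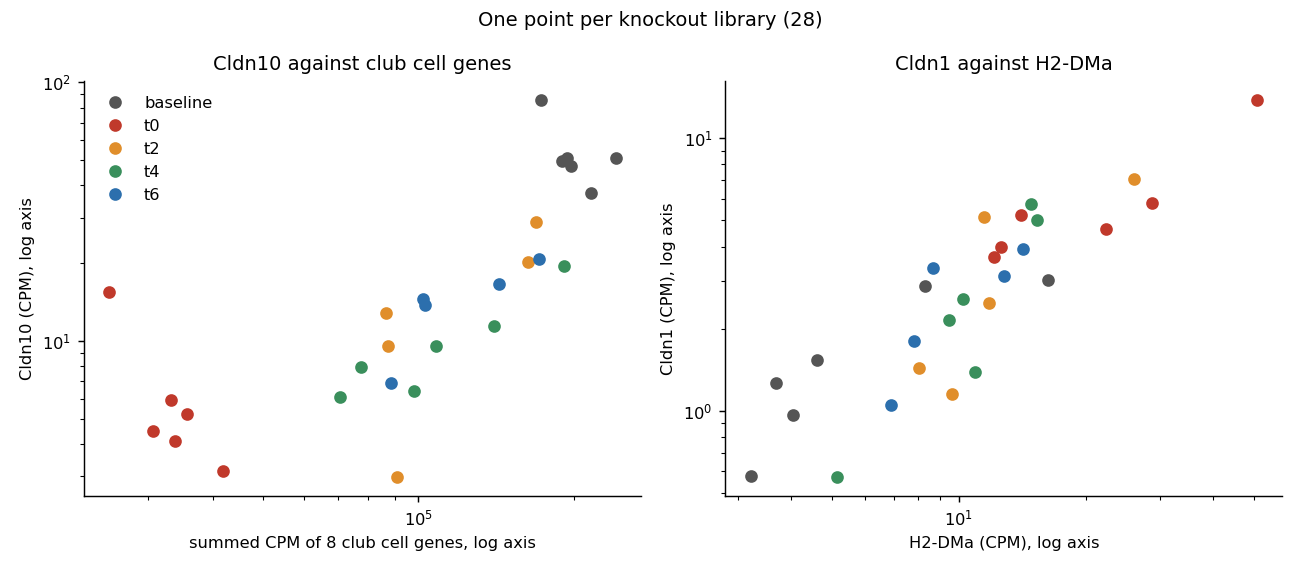
Cldn10 against the summed level of 8 club cell genes (left) and Cldn1 against H2-DMa (right), both axes in TMM-scaled CPM on log scales, 1 point per knockout library, coloured by group. The 6 t0 libraries lie lowest in the club cell sum (25200 to 41900), and t0 375 stands apart in both panels, at 15.5 CPM of Cldn10 and 13.8 CPM of Cldn1.

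Cldn8, a sealing claudin known from the distal nephron, lies on chromosome 16 at 88560826 to 88563184. It ranged from 59.2 to 79.3 CPM at baseline (median 69.3) and from 31.4 to 52.0 at t0 (median 36.5). The 2 groups did not overlap (-0.80 ± 0.16, adjusted p = 0.00016). The t2 libraries held 39.0, 41.8, 55.4, 57.3 and 60.9 CPM, just reaching the baseline range, and missed the threshold (-0.44 ± 0.16, 0.059). That t2 difference of Cldn8 passed with DESeq2 (adjusted p = 0.049), with limma at either pseudocount (0.047 and 0.048), and without t2 334 (0.047) or t4 377 (0.048). At t4 the range was 34.4 to 60.1 (median 43.9; -0.65 ± 0.16, 0.005). At t6 the libraries held 54.5, 60.9, 81.1, 84.1 and 84.4, of which 3 lay above every baseline library (0.08 ± 0.16, 0.82). Of the 7 genes called at t0, Cldn8 had the t6 estimate nearest to no change. The t4 call for Cldn8 was lost under scaling by library totals alone (-0.57, adjusted p = 0.057).

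Cldn18, the claudin of alveolar epithelium and stomach, on chromosome 9 at 99690797 to 99717268, was at the limit of detection. Summed over the libraries of a group it had 2 counts before exposure, then 3 (t0), 6 (t2), 1 (t4) and 2 (t6), and no library had more than 3. It did not pass the filter of 1 CPM in 5 libraries and was not tested. A count of 0 in a whole group would have allowed up to 0.0183 to 0.0245 CPM (3 counts over the group, counting error only), and no difference between groups was detectable at this depth. In the wildtype libraries it was listed at 0.05 ± 0.12 TPM (SD, n = 6). All of this came from the library of animal 289, at 0.3 TPM (13 counts), and the others were at 0. Of the 8 alveolar marker genes, Sftpc stood at 9.38 ± 3.79 CPM (n = 6) and Ager at 5.51 ± 5.72 (n = 6) at baseline, while Sftpa1, Sftpd and Abca3, which airway cells also express, stood at 826 ± 281, 602 ± 130 and 318 ± 52.8 (n = 6 each). The others of the 8 stood at 138 ± 27.4 (Hopx), 47.4 ± 23.4 (Sftpb) and 1.89 ± 0.51 CPM (Lamp3; n = 6 each). The labelled tissue, airway epithelium, was matched by the club cell sum of at least 173000 CPM and a ciliated cell sum of at least 3880 CPM at baseline.

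The scaffold and occludin transcripts moved least from baseline at t0, t2 and t4, while at t6 Cldn8 (log2 fold change 0.08) moved less. Tjp1 (chromosome 7, 65296165 to 65371245) ranged from 73.7 to 85.8 CPM at baseline (median 83.5), from 73.4 to 100 at t0 (median 89.4), and held 50.7, 63.2, 64.2, 80.4 and 81.2 at t6. All groups overlapped baseline. Its log2 fold changes from baseline were 0.12 at t0 (95% interval -0.09 to 0.33), -0.01 at t2 (-0.23 to 0.22), -0.11 at t4 (-0.32 to 0.10) and -0.26 at t6 (-0.48 to -0.04; adjusted p = 0.16). None of these intervals reached a 2-fold change in either direction. Ocln (chromosome 13, 100497367 to 100552499) ranged from 42.9 to 56.3 CPM at baseline (median 46.8) and from 44.1 to 68.4 at t0 (median 53.7), and held 52.6, 55.2, 59.7, 64.4 and 64.8 at t6. The Ocln log2 fold changes were 0.16 at t0 (-0.08 to 0.41), -0.10 at t2 (-0.36 to 0.16), 0.24 at t4 (-0.01 to 0.49) and 0.30 at t6 (0.04 to 0.56; adjusted p = 0.16). The intervals are ± 1.96 SE of the edgeR fit and are not adjusted for the number of genes.

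Over the later groups the number of genes called against baseline was 5 of 9 at t2 (4 rose, 1 fell), 6 of 9 at t4 (4 rose, 2 fell) and 2 of 9 at t6 (1 rose, 1 fell). Over all genes tested 19.9% were called at t2 (11.2% rose, 8.73% fell), 19.6% at t4 (10% and 9.56%) and 8.82% at t6 (4.53% and 4.29%). The t6 share came from 1310 genes called, which became 2052 when t2 339 was left out of the fit. Groups did not overlap with baseline for 3 of the 9 at t2 (11.9% of all genes), 2 at t4 (13.0%) and 2 at t6 (9.39%). Cldn3, Cldn4, Cldn7 and Cldn23 were the genes that rose at both t2 and t4, and Cldn10 fell at t2, t4 and t6. These comparisons share the baseline libraries, so they are not independent of each other. Median log2 fold changes of the 9 were 0.89, 0.78 and 0.32, against 0.02, 0.01 and -0.01 over all genes. Over the 5 groups together, 7 of 9 varied by the edgeR F test (56.8% of all genes), Tjp1 (adjusted p = 0.051) and Ocln (0.059) being the others. Ocln passed with DESeq2 size factors, upper quartile scaling, DESeq2 and without the 5 libraries that stood apart (0.023 to 0.04), and Tjp1 with limma at either pseudocount or a sex term (0.041 to 0.048). With any 1 of baseline 343, t0 359 or 375, t2 358 or t4 340 or 371 left out Ocln passed too (0.033 to 0.049), as did Tjp1 with any 1 of baseline 356, t0 332 or 375, t2 334 or 339, t4 336 or t6 341 or 368 left out (0.022 to 0.05). The call for Cldn1 (0.038) was lost when any 1 of baseline 343, 352, 355 or 356 or t0 332, 374 or 375 was left out (adjusted p up to 0.17), and without haemoglobin genes and Rn45s (0.057).

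**Figure D3:**
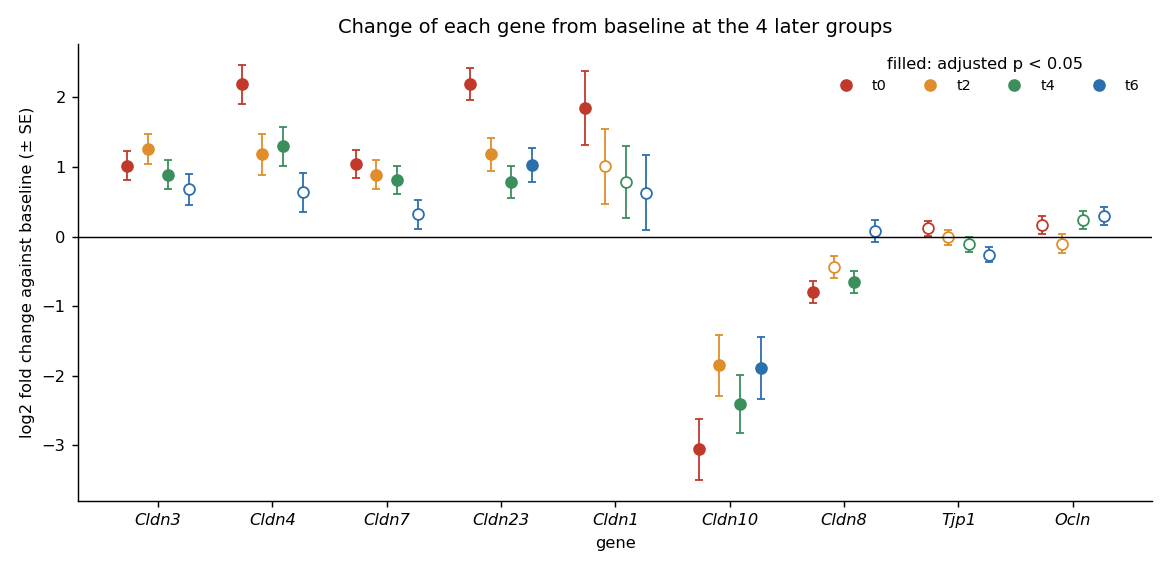
Log2 fold change from baseline (vertical axis; whiskers are SE) of the 9 genes tested, at t0, t2, t4 and t6; filled points passed the edgeR test at an adjusted p under 0.05 and open points did not. At t6 the filled points are Cldn23 at 1.03 and Cldn10 at -1.89, while no point of Tjp1 or Ocln is filled.

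How far the genes had moved back was tested directly against t0. At t6, 6 of 9 differed from t0 (2 rose, 4 fell), where 38.7% of all genes did (18.2% rose, 20.5% fell), and 3 of the 9 did not overlap with t0 (23.0%). Cldn4 was 2.93-fold lower than at t0 (-1.55 ± 0.30, adjusted p = 0.00015), Cldn23 2.26-fold lower (-1.18 ± 0.24, 0.00033) and Cldn8 1.84-fold higher (0.88 ± 0.16, 0.0001), each with no shared values between the groups. Cldn7 was 1.65-fold lower (-0.72 ± 0.21, 0.0083), with overlap. Cldn3 did not differ by the test (-0.35, 95% interval -0.78 to 0.09). Cldn10 was 2.26-fold higher than at t0 (1.18 ± 0.43, 0.03), but the call was lost when any 1 of t0 332, 357, 359, 367 or 374 or t6 365 or 366 was left out (adjusted p up to 0.081). Tjp1 was 1.3-fold lower than at t0 (-0.38 ± 0.11, 0.0089), a call that was lost without haemoglobin and Rn45s genes (-0.29, 0.056), with only these groups in the fit (-0.33, 0.091) and without the 5 libraries that stood apart (-0.19, 0.23).

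By t2, Cldn4 (-1.01 ± 0.29, adjusted p = 0.0092) and Cldn23 (-1.02 ± 0.24, 0.0018) were already lower than at t0 and Cldn10 was higher (1.21 ± 0.43, 0.032). This made 3 of 9 (1 rose, 2 fell), where 29.9% of all genes were called (15.7% rose, 14.2% fell), and each of the 3 overlapped with t0. The Cldn10 call at t2 was lost in 4 other settings (limma with either pseudocount, a sex term, or the 2 groups fitted alone; adjusted p 0.051 to 0.12) and when any 1 of t0 332, 357, 359, 367 or 374 or t2 334 or 358 was left out (up to 0.15). At t4, Cldn23 (-1.42 ± 0.23, 1.8e-05) and Cldn4 (-0.89 ± 0.27, 0.013) were lower than at t0, 2 of 9 where 33.3% of all genes were called (17.4% fell). Cldn23 did not overlap with t0 there, as was so for 18.1% of all genes. The t4 value of Cldn4 was -0.64 (adjusted p = 0.11) without the 5 libraries that stood apart.

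Levels of different genes were compared per length only. In the wildtype libraries Cldn3 led with 441 ± 128 TPM (SD, n = 6; range 270 to 596), followed by Cldn7 at 193 ± 48.3 (121 to 253) and Cldn4 at 45.5 ± 16.7 (21.0 to 64.8). These 3 did not overlap with each other. Cldn10 followed at 28.8 ± 8.69 TPM, Cldn8 at 21.0 ± 7.34, Ocln at 13.6 ± 4.41, Cldn23 at 11.7 ± 4.71 and Tjp1 at 11 ± 3.69, and from Cldn4 down to Tjp1 each overlapped its neighbour in the order. Cldn1, at 0.262 ± 0.205 TPM, lay below all of these. The authors' FPKM values gave the same order. Per kilobase of the wildtype effective length, the knockout baseline libraries gave Cldn3 390 ± 70.2 CPM per kb (n = 6), Cldn7 223 ± 27.0, Cldn4 71.6 ± 27.5, Cldn10 34.9 ± 10.7, Cldn8 30.5 ± 3.48, Cldn23 18.9 ± 3.41, Ocln 17.2 ± 1.71, Tjp1 13.4 ± 0.875 and Cldn1 0.526 ± 0.314. The order differed from that of the wildtype libraries only in the places of Cldn23 and Ocln, whose ranges overlap. The authors processed the genotypes separately, and they were not tested against each other.

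As shares of the summed level per kilobase of the 8 claudins, their mixture shifted at t0. Other claudins were not part of this sum, among them Cldn22, with a mean of 54.6 CPM at baseline and 4.46 at t0. Cldn4 held 9.13% ± 2.20 (SD, n = 6) at baseline and 19.0% ± 3.35 (n = 6) at t0, and Cldn23 2.47% ± 0.373 and 5.23% ± 1.49. Cldn10 went from 4.70% ± 1.95 to 0.267% ± 0.216 and Cldn8 from 4.02% ± 0.653 to 1.12% ± 0.432. Cldn3 and Cldn7 together made up most of the sum in both groups, at 50.5% ± 3.81 and 29.1% ± 1.74 at baseline and 46.5% ± 2.21 and 27.7% ± 3.94 at t0. At t6 Cldn4 stood at 10.4% ± 1.54 (n = 5), near its baseline share. Cldn8 stood at 3.20% ± 1.29, with a range of 1.7% to 4.72% against 3.52% to 5.1% at baseline. Cldn10 stood at 0.917% ± 0.358, every t6 library being below every baseline library.

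**Figure D4:**
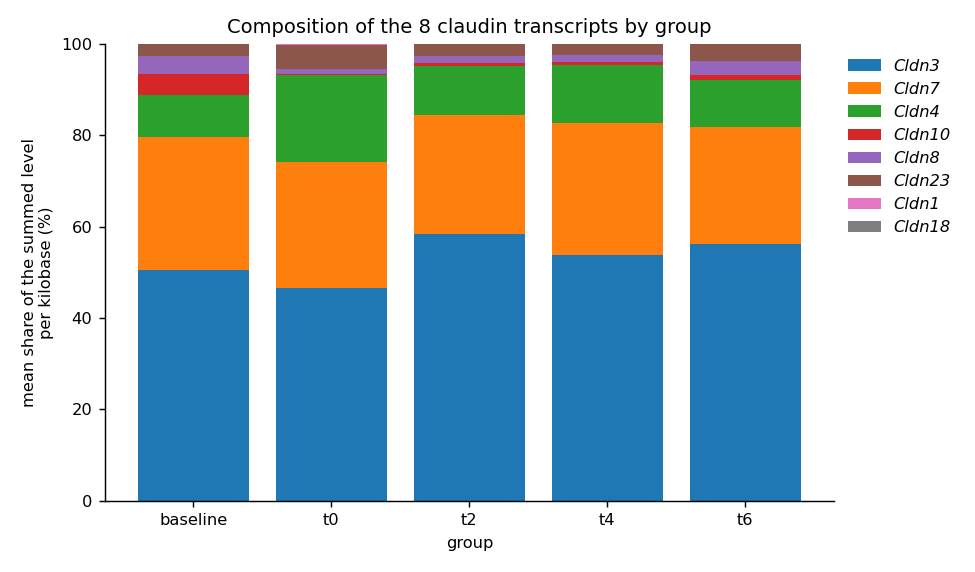
Mean share of each of the 8 claudins in their summed level per kilobase (vertical axis, percent) by group (horizontal axis), as stacked bars. Cldn4 widens from 9.13% at baseline to 19.0% at t0, and Cldn10 narrows from 4.70% to 0.267% and is still at 0.917% at t6.

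The ratio of Cldn4 to its neighbour Cldn3, in CPM within a library, was 0.27 ± 0.0756 (SD, n = 6) at baseline and 0.606 ± 0.107 (n = 6) at t0, and the ranges of 0.209 to 0.41 and 0.421 to 0.709 did not overlap. It stood at 0.285 ± 0.154 at t2 (n = 5), 0.372 ± 0.181 at t4 (n = 6) and 0.276 ± 0.0536 at t6 (n = 5), each overlapping baseline. The t2 mean rested on t2 339 at 0.548, while t2 334, 347 and 360, at 0.207, 0.201 and 0.175, lay below every baseline library. At t4 the highest ratios were 0.693 in t4 336 and 0.478 in t4 335. The ratio of Cldn7 to Cldn3 was 0.375 ± 0.0453 at baseline and 0.386 ± 0.0624 at t0, and its ranges of 0.318 to 0.434 and 0.3 to 0.461 overlapped.

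Over the 28 libraries the log2 values of Cldn3, Cldn4 and Cldn7 varied together, which is given as a description since libraries share their group and depth. Pearson's r was 0.82 between Cldn3 and Cldn7 (0.68 after group means were removed), 0.82 between Cldn4 and Cldn7 (0.57) and 0.68 between Cldn3 and Cldn4 (0.45). Cldn23 varied with them too, at 0.69 with Cldn3 (0.66), 0.76 with Cldn4 (0.23) and 0.64 with Cldn7 (0.29). Cldn8 ran against Cldn4 (-0.79, and -0.55 within groups) and Cldn7 (-0.78 and -0.53), while Cldn10 ran against Cldn4 across groups (-0.72) and hardly within them (-0.12). The transcripts most like each gene were Agpat1 and Tpst2 for Cldn3 (both r = 0.90), Tmem43 and Fam83h for Cldn4 (both 0.93), Ccdc86 and Ltbr for Cldn7 (0.92 and 0.91), and Rassf7 and Aldh3b2 for Cldn23 (0.92 and 0.91). They were Gm10440 and Slc25a16 for Cldn8 (0.84 and 0.82), Gpd2 and Ptbp3 for Tjp1 (0.74 and 0.69) and Fam135a and Pir for Ocln (0.70 and 0.66). Within groups these values were 0.60 and 0.43 for Cldn8, 0.58 and 0.56 for Tjp1, and 0.77 and 0.56 for Ocln. Gm10440 was rare, at 1.21 ± 0.33 CPM (SD, n = 6) at baseline. For Tjp1 neither named transcript was among the first 2 by Spearman's rank correlation (Ssfa2 and Spast) or within groups (Tulp4 and Mbnl2). The first by Spearman was also another transcript for Cldn3 (Gna11), Cldn4 (Ppl), Cldn10 (Capn13) and Ocln (S100a6). Within groups neither named transcript was among the first 2 for Cldn7 (Dpp9 and Grwd1), Cldn8 (Ivd and Dnajc28) or Cldn10 (Dclk1 and Capn13).

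Of 20 other claudin genes listed, 15 had a row and 6 passed the filter. At t0, 4 of these 6 were called (1 rose, 3 fell), with a median log2 fold change of -1.10, where 45.5% of all genes were called (23.3% rose, 22.3% fell). Cldn22 fell from 54.6 ± 11.9 CPM (SD, n = 6) to 4.46 ± 1.32 (n = 6; -3.61 ± 0.32, adjusted p = 2.7e-09) and was still lower at t6, at 25.1 ± 9.19 (n = 5; -1.12 ± 0.31, 0.021). Its neighbour Cldn24 on chromosome 8 fell from 2.77 ± 1.63 to 0.352 ± 0.381 (-2.95 ± 0.66, 0.00065). Cldn12 fell slightly at t0 (-0.43 ± 0.17, 0.045). All 9 ciliated cell genes tested fell at t0, from a summed level of 3880 to 4890 CPM to one of 1310 to 3030. At t6 their median log2 fold change from baseline was -0.03 and their summed level 3200 to 4800 CPM. The part of ciliated cells in these claudin results was not tested at t0 or at t6.

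Cldn2, a claudin that forms cation pores, took another course. It stood at 9.44 ± 7.22 CPM (SD, n = 6) at baseline and 12.9 ± 3.59 (n = 6) at t0, which did not differ by the test (0.46 ± 0.30, adjusted p = 0.22). It was higher than baseline at t2 (26.7 ± 2.72, n = 5; 1.51 ± 0.32, 0.0018), t4 (21.1 ± 5.78, n = 6; 1.16 ± 0.31, 0.0087) and t6 (20.7 ± 7.70, n = 5; 1.14 ± 0.32, 0.022), and higher at t2 than at t0 (1.05 ± 0.31, 0.012). Cldn5, the claudin of blood vessel endothelium, rose from 0.362 ± 0.198 CPM (n = 6) to 1.25 ± 0.611 (n = 6) at t0 (1.77 ± 0.62, 0.022). It was rare, with 58 counts over all baseline libraries and at most 0.73 CPM there, so it passed the filter through the exposed libraries. At t6 Cldn5 stood at 1.43 ± 0.95 CPM (n = 5), and that difference from baseline just missed the threshold (1.96 ± 0.64, 0.052). The summed level of 6 endothelial genes was 8.57 to 13.9 CPM at baseline and 19.4 to 74.3 at t0, with 1 of the 6 called, and its part in the Cldn5 value was not tested. Cldn15 did not differ from baseline by the test at t0 (-1.77 ± 0.78, 0.066). The other 9 claudins with a row stayed below the filter, the highest value in any library being 10.6 CPM of Cldn9 in t2 339.

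Other membrane proteins of the tight junction also went both ways at t0: of 11 tested, 4 rose and 5 fell, with a median of -0.33, beside 23.3% and 22.3% of all genes. Lsr, a protein of the tricellular junction, rose (0.91 ± 0.14, adjusted p = 1e-05). The junctional adhesion molecules Jam2 (-1.19 ± 0.30, 0.0019) and Jam3 (-2.52 ± 0.40, 1.3e-05) and the related Igsf5 (-1.01 ± 0.14, 1.4e-06) fell. Of 28 plaque and polarity genes, 15 were called (9 rose, 6 fell; median -0.02), a share near the 45.5% of all genes. Among these the polarity genes Pard6g (1.80 ± 0.15, 9.9e-10) and Pard3 (0.75 ± 0.13, 2.3e-05) and the ZO-1-binding factor Ybx3 (1.18 ± 0.18, 6.4e-06) rose, while the atypical protein kinase C gene Prkcz fell (-0.71 ± 0.14, 0.00016). At t6, 1 of the 11 and 1 of the 28 were called, beside 8.82% of all genes.

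Genes of the desmosome, the junction that anchors keratin filaments, mostly rose: 9 of 11 rose and 1 fell at t0, with a median of 1.46, where 23.3% of all genes rose and 22.3% fell. Dsg3 (4.90 ± 0.58, adjusted p = 1.9e-07), Evpl (3.05 ± 0.24, 3.1e-10), Pkp1 (2.91 ± 0.29, 2.1e-08) and Dsp (1.14 ± 0.14, 5.7e-07) were among them. At t6, Dsg3 (3.11 ± 0.55, 0.00055) and Pkp1 (1.31 ± 0.29, 0.0045) were still higher, 2 of the 11 where 4.53% of all genes rose. Of 12 adherens junction genes, 6 rose and 1 fell at t0 (median 0.32; 23.3% and 22.3% of all genes), among them P-cadherin, Cdh3 (1.94 ± 0.24, 3.9e-07), the nectin genes listed as Pvrl1 (1.82 ± 0.22, 2.3e-07) and Pvrl4 (0.88 ± 0.13, 6.4e-06), and the p120 catenin gene Ctnnd1 (0.47 ± 0.10, 0.00036). Of 7 gap junction genes 1 rose, Gjb5 (2.4 ± 0.57, 0.0011), and 1 fell, a smaller share than the 45.5% of all genes. Basal cell genes (6 of 8 rose, summed level 924 to 2510 CPM at baseline and 4360 to 8710 at t0) and squamous genes (6 of 9 rose, 88.0 to 309 and 1760 to 4760) moved with these lists. At t6 the squamous genes were also still higher, 5 of 9 (median 1.79, summed level 317 to 739 CPM), and 1 basal cell gene rose and 1 fell of 8. Their part in the junction results was not tested.

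**Figure D5:**
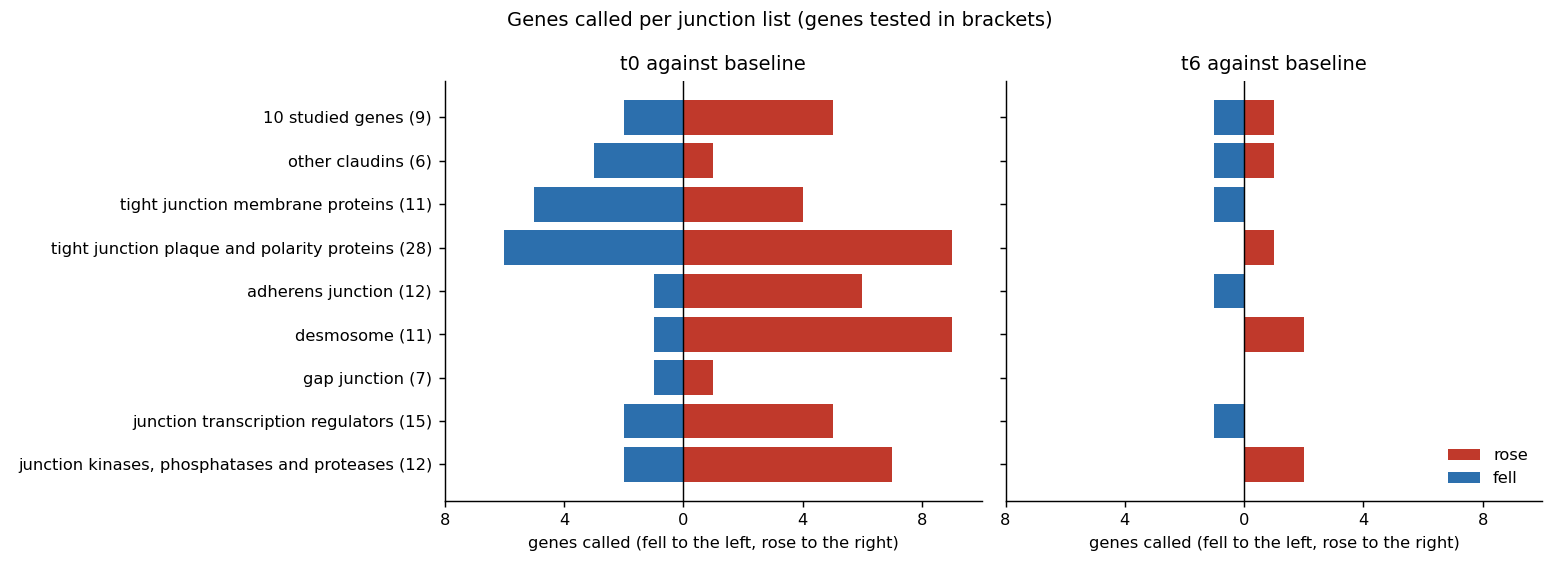
Number of genes called at t0 (left) and t6 (right) against baseline in the studied set and in 8 further junction lists (genes tested in brackets); bars to the right are genes that rose and bars to the left genes that fell. At t0 the desmosome list has 9 rising and 1 falling of 11, while the tight junction membrane list has 4 and 5 of 11; at t6 no list has more than 2 called on either side.

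Among regulators of junction genes, 5 of 15 rose and 2 fell at t0 (median 0.49), a share called near the 45.5% of all genes. Grhl3 (3.73 ± 0.48, adjusted p = 6.5e-07) and Grhl1 (0.96 ± 0.19, 0.00017), grainyhead-like factors known to act on epithelial junction genes, and Ovol1 (1.23 ± 0.20, 1.3e-05) rose. Zeb2, known as a repressor of epithelial junction genes and also expressed by macrophages, rose too (2.64 ± 0.41, 8.8e-06), beside the macrophage genes given above. Of 12 kinases, phosphatases and proteases that act on junctions, 7 rose and 2 fell (median 0.43; 23.3% and 22.3% of all genes), among them the kinase genes Stk39 (1.38 ± 0.14, 1.9e-08) and Wnk4 (1.04 ± 0.21, 0.00023) and the membrane protease genes Tmprss4 (1.60 ± 0.19, 2e-07) and St14, or matriptase (0.79 ± 0.17, 0.00049). St14 was also higher at t2 (0.74 ± 0.18, 0.0052) and t4 (0.65 ± 0.17, 0.009). At t6, 1 of the 15 regulators fell and 2 of these 12 rose, beside 4.29% and 4.53% of all genes.

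The remaining cell type lists at t0 gave 1 rise and 1 fall of 6 submucosal gland genes, 1 and 1 of 5 ionocyte genes, 1 and 4 of 6 tuft cell genes, 1 and 5 of 8 alveolar genes, none of 6 fibroblast genes, 6 rises of 7 skeletal muscle genes and 1 rise of 7 red blood cell genes. The summed level of the 5 ionocyte genes was 119 to 165 CPM at baseline and lower, at 21.1 to 51.9, at t0. In the later groups all 7 skeletal muscle genes were higher than baseline (median log2 fold changes 8.42 at t2, 5.67 at t4 and 9.29 at t6). Fibroblast genes fell in 2, 4 and 1 of 6 and tuft cell genes in 4, 3 and 5 of 6 at t2, t4 and t6. The part of these lists in the later values of the claudins was not tested. Under scaling by library totals alone the median of all genes at t0 moved from 0.02 to 0.19, and 69.3% of calls were rises, against 51.1% in the fit used here. These shares were 80.3% against 56.1% at t2, 71.2% against 51.2% at t4 and 72% against 51.4% at t6, and at t6 67.2% without the 5 libraries that stood apart. The 7 t0 calls among the 9 genes were made with the same directions under each of these settings.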

How the data were processed

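RNA from tracheal brushings of 28 Gprc5a-/- and 6 wildtype mice was read on an Ion Proton from poly-A libraries, with an RNA integrity number of at least 7, per the labels' protocols. The knockout table is named for RPKM, but the values the authors deposited are estimated counts (76.3% of values above 0 are whole within 0.01), and no RPKM value was used. The submitters' processing notes name the build mm10 and, with no roles, Partek, Bowtie2 2.1.0 and STAR 2.4.1d. The deposited wildtype files hold expected counts as well as FPKM and TPM values, per the file headers, and the submitters' processing notes name STAR 2.7.0f, RSEM 1.3.1 and GRCm38 for them. They total 10.8 M to 24.0 M counts per library. Use of strand and shared reads is not given in the sources used here, so overlapping genes are uncertain.

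Counts were rounded. The 14847 genes at or above 1 CPM in 5 or more libraries were fitted with edgeR 4.0.16 (R 4.3.3; quasi-likelihood, robust, TMM, 1 mean per group over the 28 libraries). Tests were two-sided, p-values were adjusted over all genes (Benjamini-Hochberg) and the threshold was 0.05. SE is the log2 fold change divided by the root of F. The scripts were tested on simulated data with the same spread for every gene and changes placed at t0 only, a simpler setting than these data. The p-values measure the spread between single mice. Members and lists were chosen with earlier results of these data known. Pathway genes named are up to 4 per list with the smallest F test p among those called, every other claudin tested, and the 2 transcripts with the highest r per member; some genes that this rule names are not reported here. Promoters are the 250 bases before RefSeq starts. Alternatives were other filters and scalings (DESeq2 1.42.0 size factors, library totals, upper quartile), haemoglobin genes and Rn45s left out, DESeq2, limma 3.58.1 on log2(CPM + 1) or log2(CPM + 0.1), a sex term read from the data, fits of the compared groups alone, and fits without each library in turn or without 5 libraries. Tables and plots used Python 3.11.15, numpy 2.4.6, pandas 2.3.3 and matplotlib 3.10.9.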

Additional observations from a re-analysis of the deposited data

Results flagged for a closer look

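In groups of 5 or 6 libraries, 1 library stood far from the others, by Dixon's criterion at 95%, in 8 of 50 groups tested, where chance gives about 1 in 20. Cldn1 stood at 13.8 CPM in t0 375, against 3.66 to 5.78 in the other t0 libraries, and Cldn10 in the same library at 15.5, against 3.16 to 5.91. At baseline, Cldn4 stood at 217 CPM in baseline 352 (others 85.0 to 115) and Cldn10 at 85.6 in baseline 356 (others 37.3 to 50.9). Cldn23 stood at 28.9 CPM in t4 336, below the other t4 libraries at 55.2 to 69.0. Cldn18 was above 0 in a single library of its group at 0.0773 CPM in baseline 343, 0.0307 in t4 335 and 0.0612 in t6 349, which are 1 or 2 counts each. A group with a single library above 0 meets the criterion whatever the count. The rate of 1 in 20 does not hold for such groups, so the 8 of 50 cannot be read as an excess over chance.

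The change from baseline differed between t6 and t0, tested directly as t6 against t0 with edgeR, for 6 genes. The log2 differences were 1.18 for Cldn10, -1.18 for Cldn23, -1.55 for Cldn4, -0.72 for Cldn7, 0.88 for Cldn8 and -0.38 for Tjp1. For Tjp1 neither t0 nor t6 differed from baseline by the test. The Cldn10 and Tjp1 differences lost the call in settings named with them above.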

How the results depend on the processing

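The counts of genes called stayed within 1.5 times the reported ones in every setting run except 1: without the 5 libraries that stood apart, 1 gene (0 rose, 1 fell) was called for t4 against t0 in place of 2. When each of the 28 libraries was left out in turn, the counts ranged from 7 to 7 at t0, 5 to 6 at t2, 6 to 6 at t4 and 2 to 3 at t6 against baseline, 2 to 3 for t2, 2 to 3 for t4 and 5 to 6 for t6 against t0, and 6 to 8 over the 5 groups. Over all genes, the counts called moved by over 1.5 times in 3 cases: for t6 against baseline 832 with library totals and 2052 without t2 339 in place of 1310, and for t4 against baseline 4371 with the groups compared alone in place of 2908. Of 855 values for single genes in other settings, 821 kept their direction and side of the threshold, 10 lost the call, 20 gained it and 4 changed sign. The sign changes were of differences near 0 that were not called: Tjp1 at t2 against baseline was 0.0039 with no filter and 0.10 with library totals, and with library totals Ocln was 0.0014 at t2 against baseline and -0.043 at t4 against t0. Of 2016 values with 1 library left out, 1960 kept both, 21 lost the call, 28 gained it and 7 changed sign: Tjp1 at t2 against baseline (-0.032 to 0.036) and Ocln at t4 against t0 (-0.0049 to 0.15). No paired analysis was possible because each mouse gave 1 library and the groups share no animal number. With 5 or 6 mice per group, the intervals of Cldn1 in the later groups are wide, and Cldn18 is too rare to compare.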
